A study of Mus musculus with 15 samples.

Results

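Epicardial stromal cells (EpiSC) of the infarcted mouse heart were compared with fibroblasts of the unstressed heart (CF), 5 arrays against 5, across all genes. These 10 of the 15 arrays of the series were chosen by the group in each array's title. All hearts were of wild-type C57BL/6 mice of 8 to 12 weeks. EpiSC came from hearts 5 days after an induced myocardial infarction, and CF from control hearts without one. The remaining 5 arrays, activated cardiac fibroblasts (aCF) of hearts 5 days after infarction, are given beside the comparison. No sham-operated group is among the samples. All hearts were perfused with collagenase. EpiSC were shaken off the heart surface by mild shear, whereas CF and aCF came from the ventricle, with the atria removed, after straining and a slow spin to remove heart muscle cells, and CF were prepared without shear. Infarction, cell population and isolation therefore differ together between EpiSC and CF and cannot be told apart here. The series' own design text compares EpiSC with aCF and CF with aCF; the pair described here is not one it names.

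The epicardium is the mesothelial layer that covers the heart. In the adult it is quiescent, and after infarction it is activated: its cells divide, re-express genes of the embryonic epicardium such as Wt1, and can take on a stromal form while they release growth factors and matrix. Fibroblasts of the resting ventricle keep up the collagen network and the basement membranes around muscle cells and vessels. After injury they become activated and make scar matrix.

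Each value is a log2 expression level relative to the median of all 15 arrays, so a value of 0 is that gene's median and levels of different genes cannot be set against each other. Differences are EpiSC minus CF on this scale, with their standard error (SE) and n = 5 arrays per group. Adjusted p-values are from limma with Bonferroni adjustment over all 22206 rows of the table, 2-sided, with a threshold of 0.05. In the deposited table the values appear shifted by 6900 rows against their identifiers. No source states this shift, it was inferred from the values, and every gene named here depends on it. The displacement gave the highest mean correlation among mitosis genes (0.202 over 54 genes, against 0.0022 as deposited) of 8900 displacements tried. It was also the highest for heart muscle and cholesterol synthesis genes, and not for interferon-stimulated, endothelial and macrophage genes, where 6, 3 and 2859 others were higher. Names could be given to 13513 genes. Chromosomes 12 to 19 and part of chromosome 11 hold no value under this pairing, and genes there were not analysed here.

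The arrays separated by group. Each of the 15 arrays correlated best with an array of its own group. Correlations were 0.55 to 0.67 within EpiSC, 0.74 to 0.84 within CF and 0.21 to 0.54 within aCF. EpiSC arrays correlated with CF arrays at -0.46 to -0.31. Values set to the median of all 15 arrays tend to correlate negatively between groups, so this sign does not show opposed profiles. Between EpiSC and CF, 647 of 22206 rows passed the threshold (2.91%), 438 of them higher and 209 lower in EpiSC. Rows without an identifier supplied 81 of these. Among the named genes 509 of 13513 passed (3.77%), 351 higher (2.6%) and 158 lower (1.17%), and the median difference over all of them was 0.03. The calls began at a difference of 0.50, and 138 of the genes that were higher but 33 of those that were lower differed by at least 2 on the log2 scale. With Benjamini-Hochberg adjustment in place of Bonferroni 7157 rows passed (32.2%). In the other pairs 148 rows passed for EpiSC against aCF (0.666%), 89 higher (0.401%) and 59 lower (0.266%), and 340 for aCF against CF (1.53%), 269 higher (1.21%) and 71 lower (0.32%). Of the named genes 0.962% passed between EpiSC and aCF, 0.555% higher and 0.407% lower in EpiSC, and 2.24% between aCF and CF, 1.76% higher and 0.481% lower in aCF. The 3 pairs share arrays. Leaving out 1 CF array lowered the 647 calls to 369 to 421, the lowest without CF3, and the 209 lower calls to 97 to 115; without EpiSC4 the lower calls were 133. In these bulk samples fewer cells of a type and less RNA per cell cannot be told apart.

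**Figure D1:**
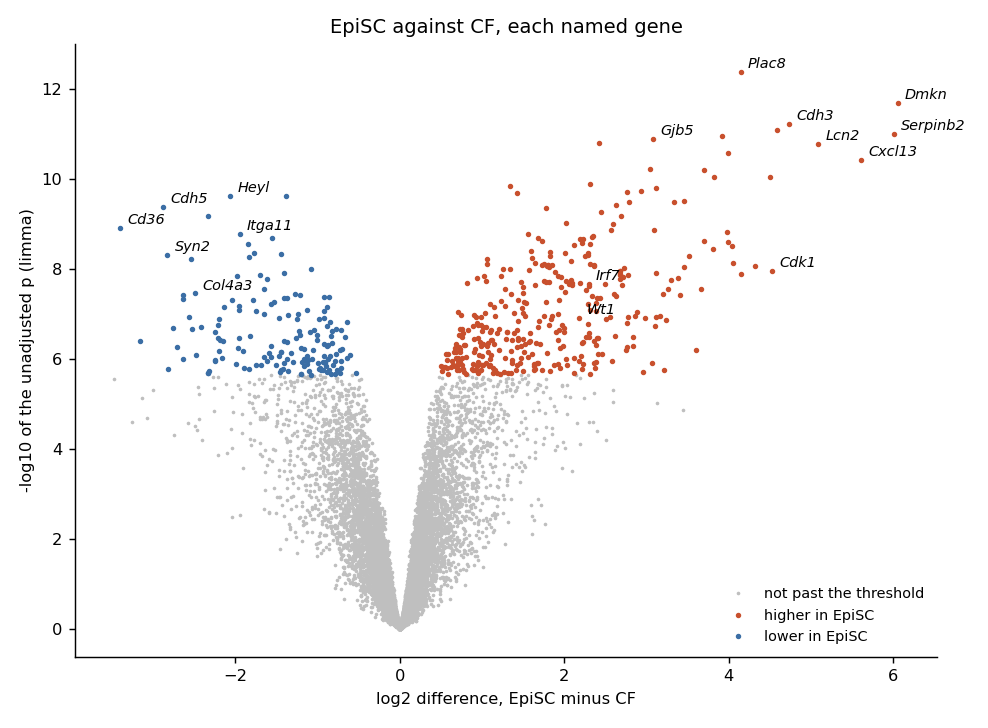
Each point is 1 named gene, placed by its log2 difference EpiSC minus CF (horizontal axis) and by -log10 of the unadjusted p of limma (vertical axis); coloured points passed the Bonferroni threshold of 0.05. Among the coloured points the increases reach further than the decreases, to 6.05 for Dmkn against -3.40 for Cd36.

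Genes of the epicardium and of mesothelium set EpiSC apart from CF. Of the 19 measured members of a list of such genes, 11 were higher in EpiSC and 0 lower, with a median difference of 2.30. Leaving out CF3 or CF4 left 7 of the 11, and 6 kept their call in every omission of 1 array. Dmkn, a secreted protein of mesothelial and epidermal cells, showed the largest difference of all named genes. It stood at 3.66, 3.69, 3.76, 3.52 and 3.45 in the EpiSC arrays and at -2.35, -2.77, -1.84, -2.56 and -2.66 in the CF arrays. All EpiSC arrays thus lay more than 5 log2 units above every CF array, and the difference was 6.05 ± 0.16 (SE, adjusted p = 4.58e-08), a 66.3-fold excess. The aCF arrays lay between both groups, from -1.04 to 1.16. The EpiSC values differed from those of aCF by 3.64 ± 0.32 (adjusted p = 0.00983), and the aCF values exceeded those of CF by 2.41 ± 0.35 without passing the threshold (adjusted p = 0.695).

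Wt1, the zinc-finger transcription factor of the embryonic and injured epicardium, read 1.99, 2.25, 2.45, 1.64 and 1.59 in EpiSC, against 0.00, -0.47, -0.28, -0.04 and -0.21 in CF. The groups did not overlap, and EpiSC were higher by 2.18 ± 0.17 (adjusted p = 0.00271), a 4.54-fold difference. The aCF arrays, at -0.23 to 0.31, overlapped the CF arrays and differed from them by 0.17 ± 0.12 (adjusted p = 1.0). Nkain4 (3.24 ± 0.26), the membrane scaffold protein Slc9a3r1 (2.93 ± 0.12), the adhesion molecule Chl1 (2.72 ± 0.17) and the caveolar protein Cav1 (2.12 ± 0.11) were also higher, each with an adjusted p of at most 0.00312. Gata5, a transcription factor of the early heart, was higher by 2.83 ± 0.25, a call that ended without CF3 (adjusted p = 0.0532). The water channel Aqp1 was higher by 2.30 ± 0.20, and lost its call without CF4 (adjusted p = 0.0532). Bnc1, a zinc-finger protein of mesothelium, was higher by 2.36 ± 0.24 (adjusted p = 0.0275), and of the 10 omissions of 1 array its call held only without EpiSC5. In the comparison of EpiSC with aCF, 10 of the 19 genes were higher, where 0.555% of the named genes were. In that of aCF with CF 0 of 19 passed in limma in either direction, where 2.24% of the named genes did.

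Other defining epicardial genes did not pass. Upk3b, a uroplakin of mesothelial cells, had a difference of 2.50 ± 0.39 (adjusted p = 1.0): its EpiSC values of 1.35 to 2.02 lay above all CF values, which were spread from -2.21 to 0.11. Gpm6a had a difference of 2.59 ± 0.30 (adjusted p = 0.108). Tbx18, a T-box factor of the embryonic epicardium, had one of 0.32 ± 0.15, the retinoic acid-producing enzyme Aldh1a2 one of 0.18 ± 0.14 and the semaphorin Sema3d one of 0.01 ± 0.12. In 14 of the 19 listed genes all EpiSC arrays lay above all CF arrays, where 14.1% of the named genes did. The list was chosen with earlier results of these data known, so this count is no test of the samples' label.

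**Figure D2:**
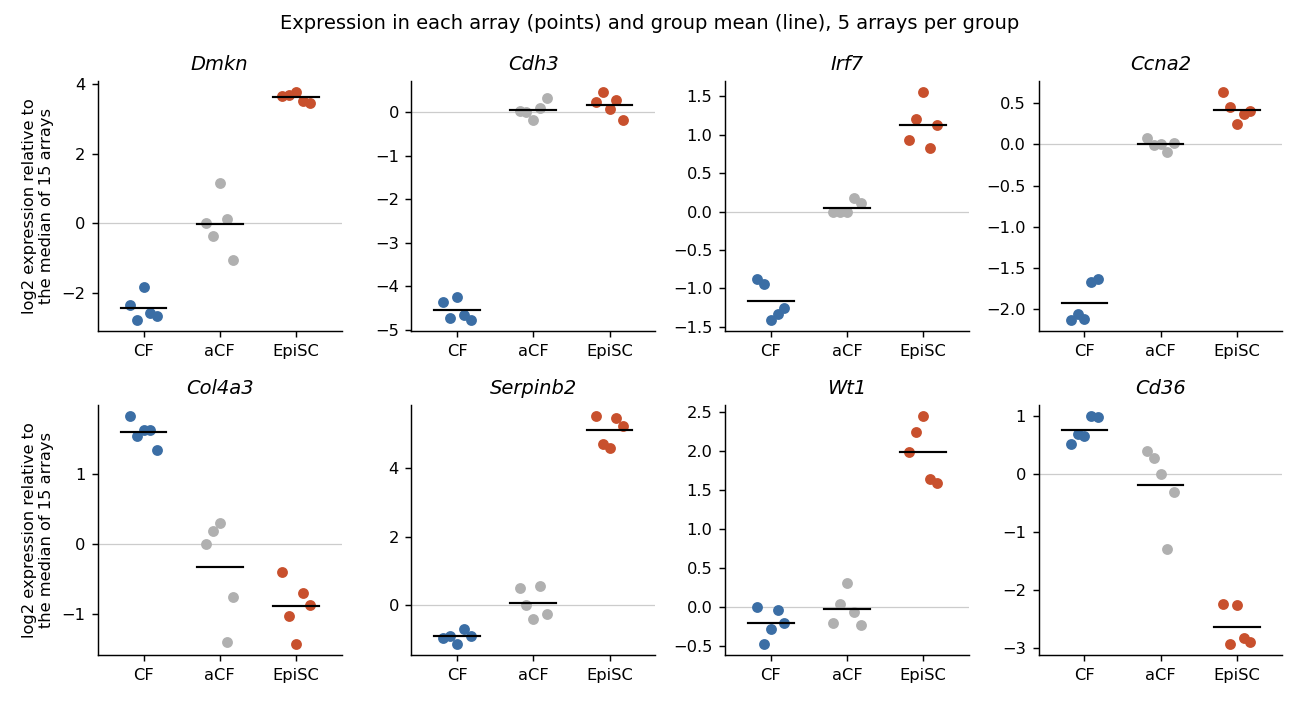
Points are the log2 expression of 8 genes in each array relative to the median of the 15 arrays, for CF, aCF and EpiSC (5 arrays each); lines are group means. EpiSC and CF do not overlap for any of the 8, and aCF lie near EpiSC for Cdh3, near CF for Wt1 and between both for Dmkn and Irf7.

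Some proteins that join cells to each other were higher in EpiSC. Cdh3, the P-cadherin of adherens junctions, read 0.23, 0.46, 0.07, 0.28 and -0.17 in EpiSC and -4.37, -4.72, -4.24, -4.67 and -4.77 in CF. Every CF array was thus more than 4 log2 units below every EpiSC array, and the difference was 4.73 ± 0.14 (adjusted p = 1.37e-07). The aCF values of -0.17 to 0.33 overlapped those of EpiSC: EpiSC minus aCF was 0.11 ± 0.13 (adjusted p = 1.0) and aCF minus CF 4.62 ± 0.12 (adjusted p = 3.69e-08). F11r, a tight junction adhesion molecule, was higher in EpiSC than in CF by 3.51 ± 0.20, and Nectin2, an adhesion molecule of adherens junctions, by 3.30 ± 0.21.

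The connexins of gap junctions followed. Gjb5 read 2.25, 2.10, 2.00, 1.89 and 1.97 in EpiSC and -1.15, -1.11, -1.02, -0.74 and -1.14 in CF, without overlap, a difference of 3.07 ± 0.10 (adjusted p = 2.90e-07). Its EpiSC values also exceeded those of aCF, by 2.13 ± 0.13 (adjusted p = 0.000245). Gja1, connexin 43, was higher than in CF by 2.32 ± 0.09 and than in aCF by 1.59 ± 0.11, and both passed. Of the 22 measured members of a list of cadherins and junction proteins 6 were higher and 0 lower, with a median difference of 0.14. That list leaves out 2 cadherins given below with the markers of other cell types. Cdh5 of endothelium was lower (-2.88 ± 0.13, adjusted p = 9.54e-06), and Cdh19 of Schwann cells had a difference of -3.25 that did not pass (adjusted p = 0.577). The epithelial cadherin Cdh1 was the sixth (1.09 ± 0.11, adjusted p = 0.0325), and its call ended in each of the 10 omissions of 1 array. The fibroblast cadherin Cdh11 just missed the threshold (1.47 ± 0.16, adjusted p = 0.0501), and the tight junction scaffold Tjp1 had a difference of -0.80 ± 0.17 (adjusted p = 1.0).

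A protease inhibitor and secreted inflammatory proteins were among the largest differences. Serpinb2, plasminogen activator inhibitor type 2, read 5.52, 4.70, 4.60, 5.46 and 5.24 in EpiSC and -0.94, -0.88, -1.11, -0.68 and -0.89 in CF. This 64.2-fold difference (6.00 ± 0.18, adjusted p = 2.26e-07) was found against aCF as well, at 5.02 ± 0.25 (adjusted p = 2.72e-05). In the aCF arrays it lay between -0.40 and 0.57. Of the 8 measured plasminogen activators, serpins and related proteins 3 were higher, and Serpinb2 was the only one of the 3 whose difference exceeded 1. It alone was left without EpiSC2, EpiSC3, EpiSC5, CF1, CF2 or CF3. The urokinase receptor Plaur had a difference of 1.49 ± 0.19 that did not pass (adjusted p = 0.327).

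Of 27 measured chemokines 3 were higher and 0 lower, with a list median of 0.14, where 2.6% of the named genes were higher. Cxcl13, which attracts B cells, read 4.45, 4.45, 5.26, 4.53 and 4.39 in EpiSC and -1.26, -1.07, -1.12, -0.43 and -1.07 in CF (difference 5.61 ± 0.20, adjusted p = 8.50e-07). The aCF arrays were widely spread, from -1.13 to 2.27, and the difference between EpiSC and aCF did not pass (4.23 ± 0.54, adjusted p = 0.257). Ppbp, the platelet basic protein that attracts neutrophils, was higher by 3.20 ± 0.22, and the neutrophil attractant Cxcl5 by 2.28 ± 0.18. Ppbp was also the one gene past the threshold among 5 measured red cell and platelet markers. Ccl2, which attracts monocytes, had a difference of 1.22 ± 0.15 (adjusted p = 0.223).

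Of 28 acute-phase and inflammatory mediators 5 were higher and 0 lower, with a median of 0.17. Without EpiSC1, EpiSC2 or any single CF array 3 of them passed. Lcn2, the iron-siderophore binding lipocalin, read 3.70, 3.34, 3.90, 3.39 and 3.46 in EpiSC against -1.50, -2.09, -1.42, -1.33 and -1.29 in CF, a difference of 5.08 ± 0.16 (adjusted p = 3.73e-07). It exceeded the aCF level by 3.76 ± 0.28 (adjusted p = 0.00188). Saa3, a serum amyloid A protein made locally in inflamed tissue, was higher by 3.91 ± 0.12. The haemoglobin-binding Hp was higher by 4.31 ± 0.26, and here aCF were also above CF, by 3.34 ± 0.32 (adjusted p = 0.0183). The cytokine Il6 was higher by 3.22 ± 0.33 (adjusted p = 0.0388). Among the 10 omissions of 1 array that call was kept without EpiSC3 or EpiSC4 and lost in the other 8. Nos2, inducible nitric oxide synthase, had a difference of 2.01 ± 0.33 (adjusted p = 1.0), with EpiSC5 at 3.30 and the other EpiSC arrays at 1.32 to 1.70.

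Blood cells also make many of these proteins, and their markers were measured. Of 23 macrophage and monocyte markers 1 was higher, Plac8 (4.14 ± 0.09, adjusted p = 9.45e-09), and 0 lower, with a list median of -0.004; at an unadjusted p under 0.05, 4 had a higher and 0 a lower value. The array medians of the list ran from -0.06 to 0.01 in EpiSC, from -0.22 to 0.00 in CF and from 0.06 to 0.23 in aCF. Of 15 lymphocyte and neutrophil markers 0 passed in limma; at an unadjusted p under 0.05, 3 had a higher and 1 a lower value. At that level 23.5% of the named genes were higher and 19.5% lower. The list of 5 red cell and platelet markers had a median of 0.54. The part of blood cells in the differences above was not tested.

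Other large increases were of genes with no list in common. Steap1, a protein of the cell surface, was higher by 4.58 ± 0.14. Its difference of 2.18 ± 0.33 between EpiSC and aCF did not pass, nor did that of 2.40 ± 0.31 between aCF and CF (limma, adjusted p = 0.277 for the latter). Prr15 (3.99 ± 0.13), the membrane protein Tmem108 (3.98 ± 0.20) and Ociad2 (3.70 ± 0.20) were higher than in CF and also than in aCF, by 2.17 ± 0.18, 2.64 ± 0.19 and 2.51 ± 0.22. Glipr1 (4.04 ± 0.22) and the chloride channel accessory protein Clca3a2 (3.99 ± 0.21) were higher than in CF but not past the threshold against aCF. In the retinoic acid list 2 of 15 were higher and 0 lower, with a median of 0.47, where 2.6% of the named genes were higher. Crabp2, which carries retinoic acid to the nucleus, read 3.09, 2.42, 2.08, 2.27 and 2.58 in EpiSC and -1.95, -2.15, -2.11, -1.73 and -2.11 in CF (4.50 ± 0.17, adjusted p = 2.04e-06). Rdh10, the retinol dehydrogenase that starts retinoic acid synthesis, was higher by 1.85 ± 0.11, and by 2.07 ± 0.13 against aCF, while aCF and CF differed by -0.22 ± 0.12.

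Among 34 measured growth factors and receptors 3 were higher and 1 lower (median 0.18), and 1 higher without CF1 or CF3. Of the named genes 2.6% were higher and 1.17% lower. Pdgfc, a ligand of the PDGF receptor alpha, read 1.22, 1.55, 1.24, 1.38 and 1.58 in EpiSC and -2.52, -2.42, -2.62, -2.68 and -1.90 in CF. All EpiSC arrays were more than 3 log2 units above all CF arrays, and the difference was 3.82 ± 0.15 (adjusted p = 2.05e-06). The aCF arrays lay at -0.45 to 0.53, above CF by 2.42 ± 0.19 (adjusted p = 0.00259). Met, the receptor of hepatocyte growth factor, was higher by 2.26 ± 0.20, a call that ended without CF1 or CF3 (adjusted p up to 0.0523). The neuregulin Nrg1 had a difference of 1.47 ± 0.26 (adjusted p = 1.0). When the columns were quantile-normalized again, the folds of several large differences, taken off the log scale, shrank by more than 1.5 times. These genes kept their calls. On the log2 scale Dmkn fell to 4.84, Serpinb2 to 4.52, Cxcl13 to 4.32, Lcn2 to 4.17, Steap1 to 3.80 and Cdh3 to 3.78. Crabp2 fell to 3.77, Hp to 3.62, Plac8 to 3.55, Clca3a2 to 3.37, Nkain4 to 2.59 and Ppbp to 2.43.

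Genes of cell division were higher in EpiSC as a broad group. Of the 59 measured genes of mitosis and the spindle 40 were higher and 0 lower, with a median difference of 1.99. In 53 of the 59 all EpiSC arrays lay above all CF arrays, where 14.1% of the named genes did. Of the 41 measured genes of DNA replication 13 were higher and 0 lower, with a median of 0.80; 8 were higher without CF2. Many genes of mitosis are switched on late in the cycle through promoters that carry CCAAT boxes and the cell cycle homology region, TTTGAA. Because these members moved together, the 120 bases before the start site of 4 of them are shown, from RefSeq on GRCm38.p6, written along the gene's strand. Capitals mark CCAAT or its complement ATTGG, and TTTGAA or its complement TTCAAA.
Cdk1, chr10:69352913-69353032, minus strand: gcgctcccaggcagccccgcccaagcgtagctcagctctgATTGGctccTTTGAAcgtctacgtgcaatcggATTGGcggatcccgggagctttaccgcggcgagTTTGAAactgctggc
Ccnb2, chr9:70421555-70421674, minus strand: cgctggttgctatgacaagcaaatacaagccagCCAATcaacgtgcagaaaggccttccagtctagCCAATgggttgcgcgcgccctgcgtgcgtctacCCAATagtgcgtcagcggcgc
Cdc20, chr4:118437344-118437463, minus strand: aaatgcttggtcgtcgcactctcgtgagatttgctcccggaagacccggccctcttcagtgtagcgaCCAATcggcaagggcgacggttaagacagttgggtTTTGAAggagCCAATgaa
Ube2c, chr2:164769809-164769928, plus strand: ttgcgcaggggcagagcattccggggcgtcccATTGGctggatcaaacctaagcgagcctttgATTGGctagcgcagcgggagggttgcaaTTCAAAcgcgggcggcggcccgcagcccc
In the 250 bases before the start, CCAAT on either strand was found for 37 of the 53 measured mitosis genes with a window (69.8%) and for 20 of 33 replication genes (60.6%), against 38.8% of the named genes counted in the same way, over any window of the gene, and 33.8% of all 32851 single windows. TTTGAA was found for 21 of 53 mitosis genes (39.6%), against 16.2% of the named genes and 16.0% of all windows. These are matches of letters, and binding was not measured.

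Cdk1, the kinase that drives entry into mitosis, read 0.73, 0.89, 0.61, 0.93 and 0.40 in EpiSC and -3.94, -4.23, -4.20, -2.65 and -4.07 in CF. The groups were far apart although CF4 stood above the other CF arrays, and the difference was 4.53 ± 0.28 (adjusted p = 0.000245). The aCF arrays lay at -0.07 to 0.26: aCF minus CF was 3.87 ± 0.27 (adjusted p = 0.000636) and EpiSC minus aCF 0.66 ± 0.11 (adjusted p = 1.0). Ccna2, the cyclin of S and G2 phase, read 0.63, 0.45, 0.25, 0.37 and 0.41 in EpiSC, -2.13, -2.06, -2.12, -1.67 and -1.63 in CF and -0.09 to 0.08 in aCF. EpiSC exceeded CF by 2.34 ± 0.12 (adjusted p = 4.18e-05). EpiSC also lay above every aCF array, but that difference of 0.42 ± 0.08 did not pass (adjusted p = 1.0).

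Other members are given here in the order of the cycle, whose phases were not measured. The replication genes that were higher included Dtl (2.43 ± 0.17), which marks licensing factors for destruction, cyclin E2 (Ccne2, 2.30 ± 0.15), and Gins2 (2.19 ± 0.11), Mcm5 (1.92 ± 0.12) and Mcm2 (1.53 ± 0.11) of the replicative helicase. Pclaf, a partner of the sliding clamp PCNA, was higher by 3.81 ± 0.21. Of mitotic genes, the kinase Plk1 was higher by 4.05 ± 0.24, the spindle protein Fam83d by 4.14 ± 0.26, cyclin B2 (Ccnb2) by 2.68 ± 0.17, and Aurkb and Birc5, both of the chromosomal passenger complex, by 2.67 ± 0.16 and 2.29 ± 0.13. For the exit from mitosis, Cdc20 (3.26 ± 0.22), an activator of the anaphase-promoting complex, and its partner enzyme Ube2c (2.6 ± 0.18) were higher. Mki67, the proliferation antigen, was higher by 2.95 ± 0.31 (adjusted p = 0.0446), and of the 10 omissions its call held only without CF4, the CF array with its highest value (-1.18 against -2.96 to -2.58). Pttg1, securin, had a difference of -0.45 ± 0.08 (adjusted p = 1.0) and the clamp loader subunit Rfc1 one of -0.40 ± 0.16 (adjusted p = 1.0). Quantile normalization reduced Cdk1 to 3.79, Fam83d to 3.43, Plk1 to 3.42 and Pclaf to 3.19.

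In the aCF arrays both lists stood between EpiSC and CF. The array medians of the mitosis list were 0.28 to 0.69 in EpiSC, -0.05 to 0.09 in aCF and -1.61 to -1.18 in CF. Of the 59 mitosis genes 30 were higher in aCF than in CF, where 1.76% of the named genes were. Between EpiSC and aCF 0 of the 59 passed in limma, where 0.962% of the named genes did, and the median difference was 0.48. At an unadjusted p under 0.05 in limma, 39 were higher and 0 lower in EpiSC than in aCF. Of the 41 replication genes 6 were higher in aCF than in CF, and 1, Gins2, was higher in EpiSC than in aCF (1.06 ± 0.09, adjusted p = 0.00945).

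Interferon-stimulated genes, which cells switch on when interferon activates the STAT and IRF factors, were higher in part. Of 42 measured 8 were higher and 1 lower, with a median of 0.41. The promoter sequence through which these factors act is represented here by a pair of GAAA repeats with any 2 bases between them (or TTTC repeats on the complement). The 120 bases before the start of 3 of the genes are shown (RefSeq, GRCm38.p6, along the gene's strand). Isg15 and Oas1g hold the pair within these 120 bases, and in Irf7 it was not found within them. Matched bases are in capitals, and overlapping matches run together.
Isg15, chr4:156200819-156200938, minus strand: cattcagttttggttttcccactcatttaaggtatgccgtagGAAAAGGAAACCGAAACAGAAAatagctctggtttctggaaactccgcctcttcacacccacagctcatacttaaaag
Oas1g, chr5:120887614-120887733, minus strand: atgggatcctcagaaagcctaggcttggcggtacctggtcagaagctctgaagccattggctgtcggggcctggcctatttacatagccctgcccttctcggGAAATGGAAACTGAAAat
Irf7, chr7:141266425-141266544, minus strand: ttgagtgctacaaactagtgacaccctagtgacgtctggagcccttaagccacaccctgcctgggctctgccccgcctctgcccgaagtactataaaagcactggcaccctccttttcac
The motif was found on either strand in the 250 bases before the start of 15 of 36 members with a window (41.7%), against 3.44% of the named genes counted in the same way and 2.98% of all single windows.

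Irf7, the factor that amplifies type I interferon production, read 0.93, 1.21, 1.55, 0.83 and 1.12 in EpiSC and -0.88, -0.95, -1.41, -1.34 and -1.25 in CF. The difference was 2.29 ± 0.15 (adjusted p = 0.000483), a 4.90-fold excess. The aCF arrays formed a narrow middle group at -0.01 to 0.17, above CF by 1.22 ± 0.11 (adjusted p = 0.00682). EpiSC exceeded aCF by 1.08 ± 0.12 without passing the threshold (adjusted p = 0.109). Isg15, a ubiquitin-like modifier, read 0.27, 0.48, 0.60, 0.53 and 0.91 in EpiSC and -1.02, -1.22, -1.16, -0.98 and -1.05 in CF (1.64 ± 0.11, adjusted p = 0.000505).

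The nucleic acid sensor Zbp1 was higher by 2.22 ± 0.12, and by 1.6 ± 0.13 against aCF (adjusted p = 0.00427). Oasl1, which restrains Irf7 translation, was higher by 2.39 ± 0.18. Oas1g (1.78 ± 0.08) and Oas1a (1.72 ± 0.09) were higher too. They belong to a cluster of near-identical copies of the enzyme that makes 2-5-linked oligoadenylate, so their separate values are uncertain. Oas2 had a difference of 2.04 ± 0.23 (adjusted p = 0.0873). The Schlafen genes moved in opposite directions: Slfn2 was higher by 1.44 ± 0.11 and Slfn5 lower, at -1.23 ± 0.09 (adjusted p = 0.0022).

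**Figure D3:**
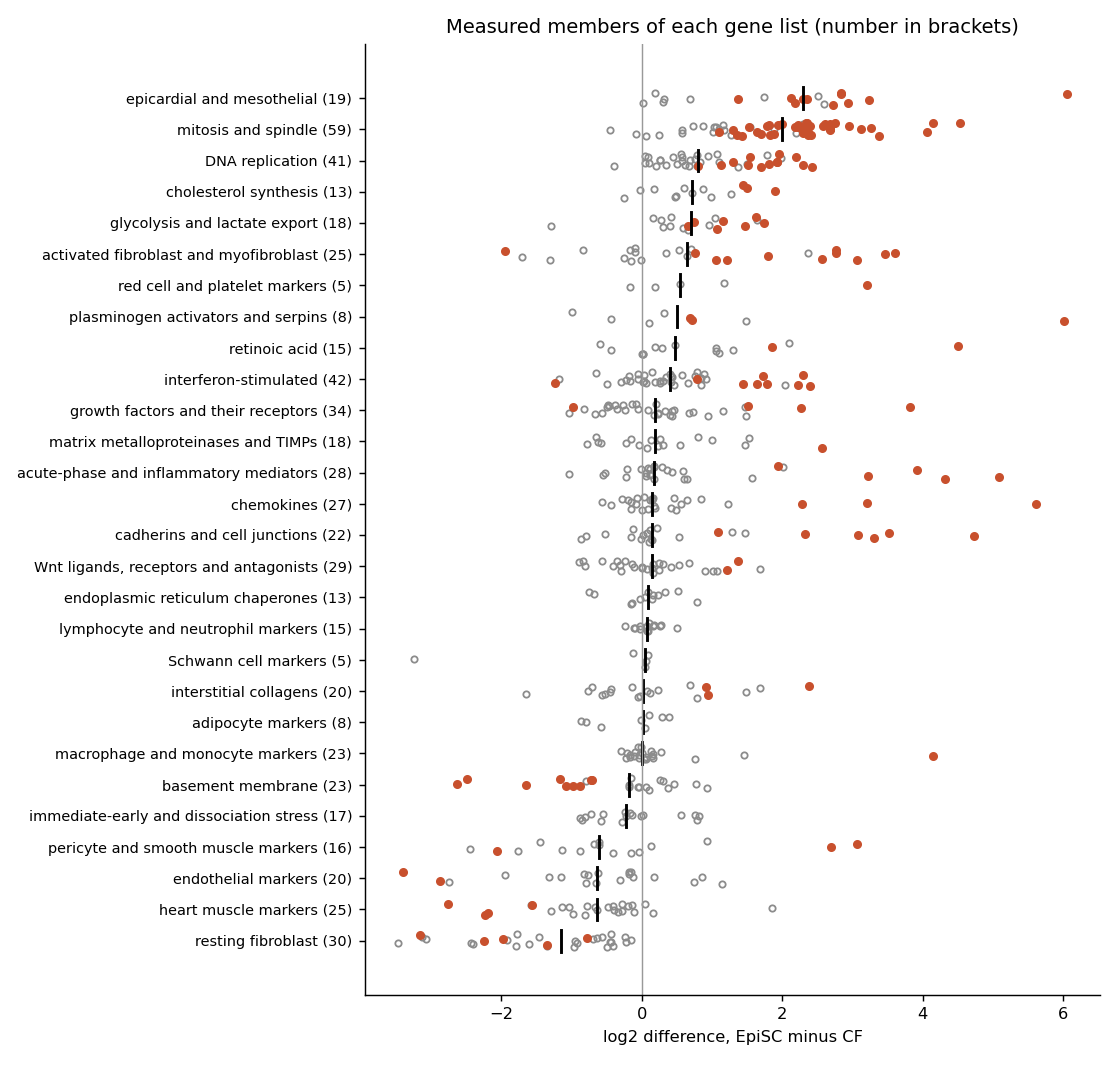
Each point is a measured gene, placed by its log2 difference EpiSC minus CF (horizontal axis) in the row of its list, with the number of measured genes in brackets; filled points passed the Bonferroni threshold and the bar is the list median. The medians run from 2.30 for epicardial and 1.99 for mitosis genes to -1.16 for resting fibroblast genes.

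Of 23 measured basement membrane genes 9 were lower in EpiSC and 0 higher, and the list median was -0.18. Between 4 and 7 passed when 1 array was left out. The count was 5 without EpiSC1, EpiSC2 or EpiSC4, and 4 without EpiSC3 or any single CF array. With a variance trend and the robust setting of limma 4 also passed. Trend and robust setting were always run together and are called the variance trend below. Col4a3, a chain of the type IV collagen network, read -0.40, -1.04, -1.43, -0.71 and -0.88 in EpiSC and 1.83, 1.55, 1.63, 1.63 and 1.34 in CF, a 5.61-fold difference (-2.49 ± 0.17, adjusted p = 0.000779). The aCF arrays were divided, with aCF1 to aCF3 at 0.00 to 0.30 and aCF4 and aCF5 at -1.41 and -0.77. Against CF the aCF difference of -1.93 ± 0.30 did not pass (adjusted p = 1.0). Lama2, the laminin alpha 2 chain around muscle fibres, read -1.51, -1.81, -2.13, -2.18 and -1.12 in EpiSC and 0.98, 0.91, 0.87, 0.88 and 0.76 in CF. The groups were more than 1.5 log2 units apart, and the difference was -2.63 ± 0.18 (adjusted p = 0.000836).

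Col15a1, a collagen that ties basement membranes to the interstitium, was lower than in CF by -1.65 ± 0.11 and than in aCF by -1.36 ± 0.11 (adjusted p = 0.00486). Col4a4, the partner chain of Col4a3, was lower by -0.98 ± 0.08, a call lost with all 3 groups in 1 fit (adjusted p = 0.0702) and with a variance trend in limma (0.164). The common chains Col4a1 (-1.08 ± 0.11, adjusted p = 0.0498) and Col4a2 (-0.88 ± 0.09, adjusted p = 0.0428) lost their calls in 10 and in 9 of the 10 omissions, Col4a2 keeping it only without EpiSC4, and also with quantile normalization (0.119 and 0.735). Against aCF both were lower in EpiSC, by -1.03 ± 0.10 and -1.30 ± 0.09 (adjusted p = 0.0165 and 0.0006). Lama5, the laminin chain of epithelia, had a difference of 0.77 ± 0.09 (adjusted p = 0.10).

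Of 20 interstitial collagens, among them the fibrillar collagens of scar, 3 were higher and 0 lower, with a median of 0.02, and 1 was higher without CF3 or CF5. Col1a1 read -0.20, 0.01, -0.07, 0.00 and 0.07 in EpiSC, -0.89, -0.99, -1.09, -0.83 and -1.10 in CF and 0.16 to 0.25 in aCF. EpiSC exceeded CF by 0.94 ± 0.08 (adjusted p = 0.00348), a 1.92-fold difference, and aCF exceeded CF by 1.18 ± 0.06. With the variance trend and robust setting together the call of Col1a1 was lost (limma, adjusted p = 0.307). Col1a2 was higher by 0.91 ± 0.08, and lost its call without CF3 or CF5 (up to 0.0575) and with the trend (0.456). The third, Col24a1, was higher by 2.38 ± 0.24 (adjusted p = 0.0263), and among the 10 omissions it kept its call without EpiSC1 or EpiSC3. Col3a1 had a difference of 0.68 ± 0.13 (adjusted p = 1.0).

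Genes of activated fibroblasts and myofibroblasts were split. Of 25 measured 10 were higher and 1 lower than in CF, with a median of 0.64, and 6 were higher without CF2, CF3 or CF5. In aCF 19 of them were higher than in CF, and in the direct test 5 were lower in EpiSC than in aCF and 0 higher. Tnc, tenascin C of wound matrix, read -0.02, 0.00, 0.01, 0.24 and -0.16 in EpiSC and -2.58, -2.71, -2.93, -2.49 and -3.02 in CF (2.76 ± 0.11, adjusted p = 4.50e-06), with aCF at 0.22 to 0.28. The metalloproteinase Adam12 was higher by 3.46 ± 0.15. Timp1, an inhibitor of metalloproteinases, was higher by 2.57 ± 0.13. It was the only one of 18 measured MMPs and TIMPs to pass, where 3.77% of the named genes did. Fibronectin (Fn1, 1.06 ± 0.06) and periostin (Postn, 0.75 ± 0.06) were higher, with calls lost under the variance trend (adjusted p = 0.0599 and 1.0). The hyaluronan-degrading Cemip was higher by 3.60 ± 0.34 (adjusted p = 0.0145). EpiSC4 stood apart at 1.87 for this gene, and its call ended in 7 of 10 omissions, holding without EpiSC2, EpiSC4 or EpiSC5.

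Itga11, the alpha 11 integrin through which fibroblasts bind collagen, was the one gene of the list that was lower. It read -1.88, -1.89, -2.25, -1.66 and -1.82 in EpiSC, 0.06, 0.13, 0.07, 0.00 and -0.04 in CF and -0.10 to 0.36 in aCF. The CF and aCF arrays overlapped and all EpiSC arrays lay below them, by 1.94 ± 0.10 against CF (adjusted p = 3.75e-05) and by 2.03 ± 0.12 against aCF (adjusted p = 0.000181). The fibroblast activation protein Fap had a difference of -1.70 ± 0.27 that did not pass (adjusted p = 1.0). Sfrp2, a secreted Wnt modulator, read -0.33, -0.09, 0.00, 0.07 and 0.08 in EpiSC, -1.30, -1.30, -1.35, -1.38 and -0.99 in CF and 1.05 to 1.26 in aCF. EpiSC were higher than CF by 1.21 ± 0.10 (adjusted p = 0.00476; 0.112 with the variance trend) and lower than aCF by 1.23 ± 0.09 (adjusted p = 0.00114). Among 29 measured Wnt ligands, receptors and antagonists (median 0.14) 2 were higher and 0 lower, where 2.6% of the named genes were higher. Sfrp2 was 1 of the 2. The other was Rspo1, which enhances Wnt signalling (1.36 ± 0.14, adjusted p = 0.0276). Its call held only without EpiSC3 and was lost with the trend (0.187).

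Genes of resting fibroblasts leaned downward together. Of 30 measured 5 were lower and 0 higher, and the list median was -1.16, the lowest of the 28 lists. All 30 differences were below 0. The 5 calls became 10 without EpiSC5, 3 without EpiSC1, 2 without EpiSC3, CF3, CF4 or CF5, 1 without EpiSC4, CF1 or CF2, and 17 with all 3 groups in 1 fit. In 25 of the 30 all EpiSC arrays lay below all CF arrays, where 11.2% of the named genes did. In aCF 14 of the 30 were lower than in CF, where 0.481% of the named genes were. Between EpiSC and aCF 0 of the 30 passed in limma, where 0.962% of the named genes did, and the median difference was -0.31. At an unadjusted p under 0.05 in limma, 16 were lower and 4 higher in EpiSC than in aCF. The share of the named genes at that level was not computed for this pair. Olfml2a was lower by -1.98 ± 0.12 (adjusted p = 0.000324). Prex2, an exchange factor for Rac, was lower by -3.16 ± 0.28 (adjusted p = 0.00885), and lost its call without EpiSC4, EpiSC5, CF1, CF2, CF4 or CF5 (up to 0.0624). The steroid enzyme Hsd11b1 (-3.13 ± 0.38) and the transporter Slco2b1 (-3.47 ± 0.38) had larger differences than most but did not pass (adjusted p = 0.167 and 0.0625). Tcf21, the transcription factor of cardiac fibroblasts, had a difference of -1.36 ± 0.19 (adjusted p = 0.673), and the proteoglycan Dcn one of -0.23 ± 0.06 (adjusted p = 1.0).

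**Figure D4:**
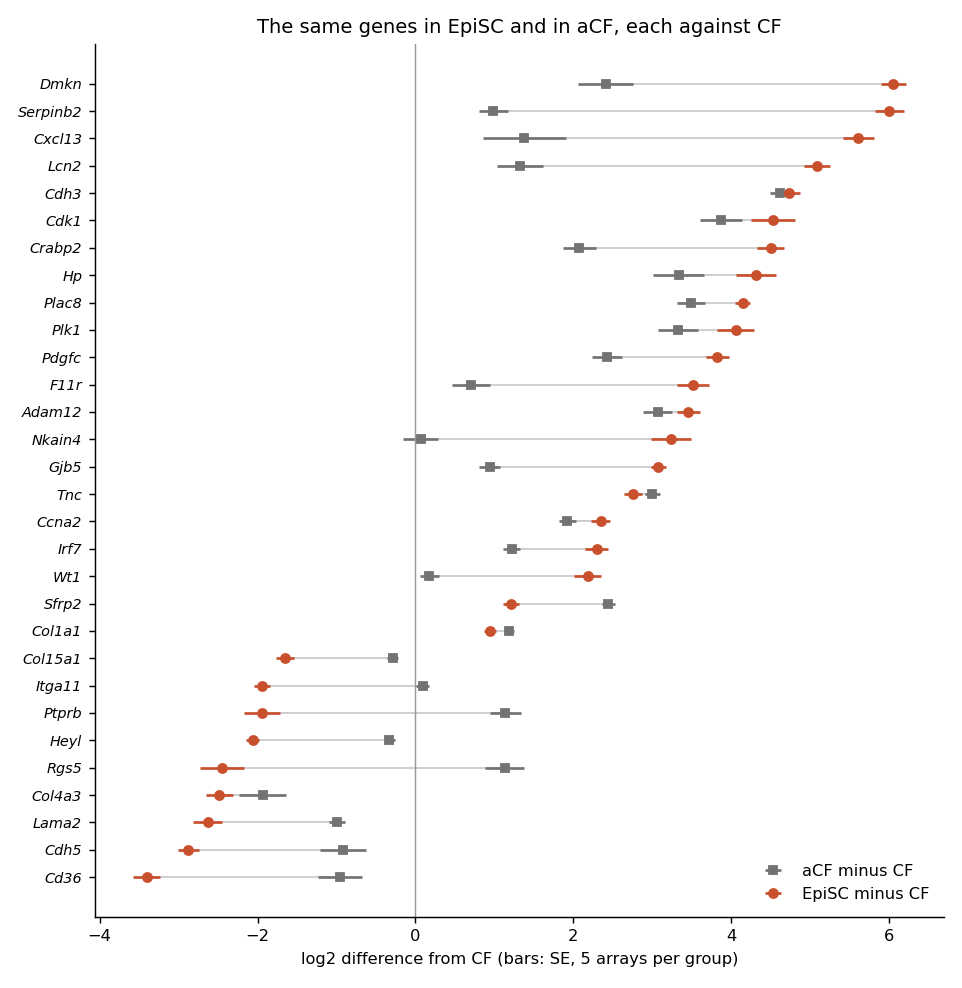
Circles are the log2 differences of 30 named genes between EpiSC and CF, and squares those between aCF and CF, with SE bars (5 arrays per group, the CF arrays shared by both). Circle and square lie close for Cdh3, Tnc and Adam12, far apart for Serpinb2 (6.00 and 0.99) and Wt1 (2.18 and 0.17), and on opposite sides of 0 for Ptprb and Rgs5, neither of which passed in either comparison with CF.

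Of 18 measured glycolysis and lactate export genes 7 were higher in EpiSC and 0 lower, with a median of 0.70, where 2.6% of the named genes were higher. Slc16a3, the lactate exporter MCT4, read 1.35, 1.04, 1.15, 1.12 and 1.18 in EpiSC and -0.80, -0.59, -0.71, -0.28 and -0.44 in CF (1.73 ± 0.10, adjusted p = 0.00018). It was also higher than in aCF, by 1.24 ± 0.10 (adjusted p = 0.00294). The glucose transporter Slc2a1 was higher by 1.47 ± 0.10, and along the pathway Tpi1 by 1.06 ± 0.06, Gapdh by 0.75 ± 0.06 and the lactate dehydrogenase subunit Ldha by 1.15 ± 0.09. Of the hexokinases, Hk2 had a difference of 1.64 ± 0.27 and Hk1 one of -1.30 ± 0.27, neither past the threshold (adjusted p = 1.0 for both). For aCF against CF 0 of the 18 passed in limma, where 2.24% of the named genes did, and the median difference was 0.28. At an unadjusted p under 0.05 in limma, 8 were higher and 2 lower in aCF than in CF.

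Of 13 measured cholesterol synthesis genes 3 were higher and 0 lower, with a median of 0.71. Cyp51, which demethylates lanosterol, was higher by 1.89 ± 0.12 (adjusted p = 0.00026) and the mevalonate pathway kinase Pmvk by 1.5 ± 0.11. Lss, lanosterol synthase, had a difference of 1.26 ± 0.29 (adjusted p = 1.0). Chaperones of the endoplasmic reticulum and immediate-early genes, which tissue digestion can induce, gave 0 calls in limma. At an unadjusted p under 0.05, 4 of the 13 chaperones were higher and 2 lower, and 4 of the 17 immediate-early genes higher and 7 lower. Of the named genes 23.5% were higher and 19.5% lower at that level.

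The largest decreases past the threshold included genes known from endothelium and heart muscle. Cd36, a fatty acid transporter of capillary endothelium and muscle, read -2.24, -2.93, -2.27, -2.83 and -2.91 in EpiSC and 0.51, 0.69, 0.65, 1.00 and 0.99 in CF, a 10.6-fold difference (-3.40 ± 0.17, adjusted p = 2.76e-05). Cdh5, the VE-cadherin that defines endothelium, read -2.11, -2.03, -2.13, -1.89 and -2.04 in EpiSC and 0.82, 0.56, 0.58, 0.96 and 1.26 in CF (-2.88 ± 0.13, adjusted p = 9.54e-06). In both genes the EpiSC arrays lay far below all CF arrays, and aCF4 was below the other aCF arrays. Of 20 measured endothelial markers these were the 2 that were lower, and 0 were higher, with a list median of -0.64; with all 3 groups in 1 fit 5 were lower and 1 higher. The array medians of the list were -0.33 to -0.12 in EpiSC, 0.005 to 0.355 in CF and -0.185 to 0.15 in aCF. The angiopoietin receptor Tek had a difference of -2.75 ± 0.41 (adjusted p = 1.0) and the receptor phosphatase Ptprb one of -1.95 ± 0.22 (adjusted p = 0.105). In 10 of the 20 markers all EpiSC arrays lay below all CF arrays, where 11.2% of the named genes did. In 3 of the 20 they all lay above, where 14.1% of the named genes did, and none of the 3 had a call. These were the sphingosine phosphate receptor S1pr1 (1.14 ± 0.17, adjusted p = 0.909), the receptor Flt4 (0.86 ± 0.11, adjusted p = 0.321, or 0.0128 with all 3 groups) and the adhesion molecule Esam (0.75 ± 0.11, adjusted p = 0.849).

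Of 25 heart muscle markers 4 were lower and 0 higher, with a median of -0.64. Without EpiSC3, CF1 or CF2, 2 of them passed, and 1 without EpiSC2, CF3, CF4 or CF5. Myl2, the ventricular myosin light chain, read -1.63, -1.89, -2.82, -2.14 and -2.41 in EpiSC and 1.04, 0.10, 0.59, 0.60 and 0.56 in CF (-2.76 ± 0.23, adjusted p = 0.00462). The aCF arrays ranged from -1.97 to 0.50, and with all 3 groups in 1 fit the call of Myl2 was lost (adjusted p = 0.305). Troponin T (Tnnt2, -2.24 ± 0.22) lost its call in 9 of the 10 omissions, holding only without EpiSC4, and with quantile normalization (0.076). The light chain Myl3 (-2.19 ± 0.19) lost it without EpiSC2, CF3, CF4 or CF5 and with all 3 groups (0.116). The cytochrome oxidase subunit Cox8b (-1.57 ± 0.15) held it only without EpiSC1 or EpiSC5. In the other direction the atrial light chain Myl7 had a difference of 1.85 ± 0.28, with all EpiSC arrays above all CF arrays, that did not pass (adjusted p = 1.0; 0.0364 without EpiSC4). The array medians of the list were -0.39 to -0.15 in EpiSC, 0.10 to 0.42 in CF and -0.35 to 0.29 in aCF.

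Of 16 pericyte and smooth muscle markers 2 were higher and 1 lower (3 lower with all 3 groups in 1 fit), with a median of -0.61. Of the named genes 2.6% were higher and 1.17% lower. Heyl, a Notch target of pericytes, was lower than in CF by -2.06 ± 0.09 (adjusted p = 5.33e-06) and than in aCF by -1.73 ± 0.07 (adjusted p = 7.58e-06). Rgs5, a regulator of G protein signalling that marks pericytes, lay at -3.17 to -2.0 in EpiSC, -0.91 to 0.27 in CF and 0.39 to 1.16 in aCF. The difference from CF did not pass (-2.45 ± 0.28, adjusted p = 0.0919) and that from aCF did (-3.58 ± 0.21, adjusted p = 0.000162). In the opposite direction the intermediate filament Des was higher in EpiSC than in CF, by 2.69 ± 0.12 (adjusted p = 1.48e-05), and than in aCF, by 1.68 ± 0.16. Calponin, Cnn1, was higher by 3.06 ± 0.31 (adjusted p = 0.0271), and its call held only without EpiSC4, which stood at 1.85 against 0.00 to 0.53 in the other EpiSC arrays. The list medians were -0.485 to -0.335 in EpiSC, -0.195 to 0.285 in CF and 0.025 to 0.215 in aCF.

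**Figure D5:**
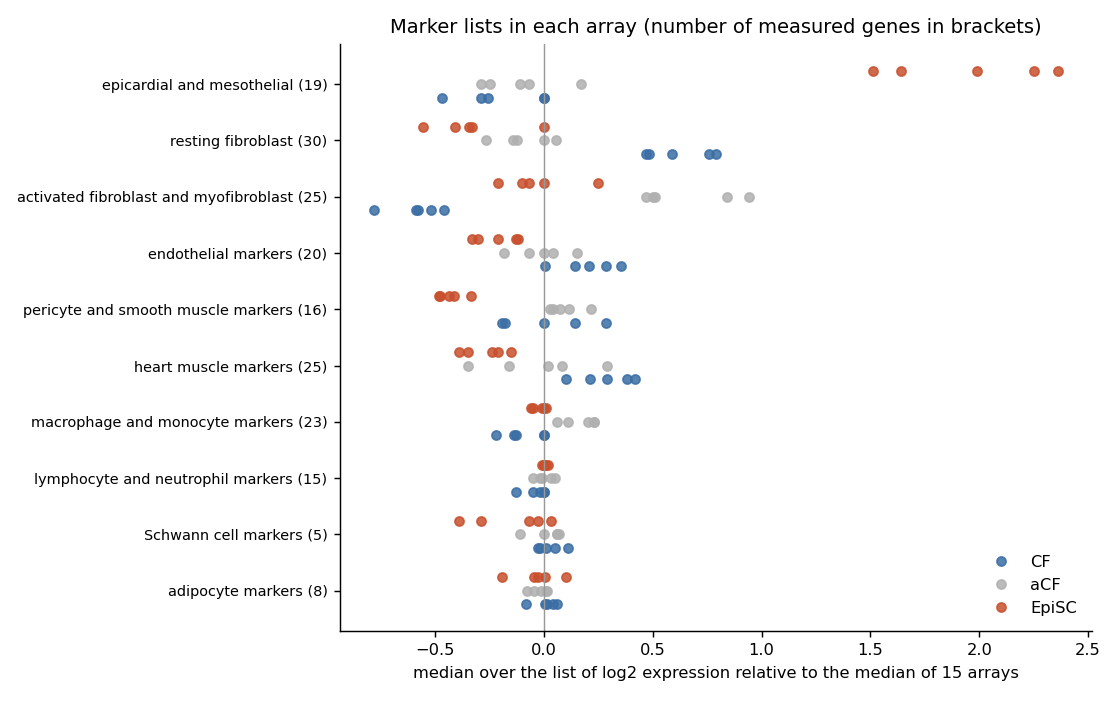
Each point is the median over a marker list of the log2 expression in 1 array (horizontal axis), for the lists named at the left with the number of measured genes in brackets; colours give the group, 5 arrays each. EpiSC arrays lie above all CF arrays for epicardial genes (1.51 to 2.36 against -0.47 to 0.00) and below them for resting fibroblast, endothelial, mural and heart muscle genes.

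Other decreases included Syn2, a synapsin (-2.82 ± 0.16, adjusted p = 0.00011), the dynamin Dnm3 (-2.64 ± 0.19), the potassium channel Kcnk2 (-2.33 ± 0.11, adjusted p = 1.50e-05) and Ppp1r14a, an inhibitor of myosin phosphatase (-2.57 ± 0.20). The glutathione transferase Gsta3 (-2.52 ± 0.21), D630003M21Rik (-2.53 ± 0.15) and Lrrc55 (-2.42 ± 0.20) were lower as well. Of 5 measured Schwann cell markers and 8 adipocyte markers 0 passed in limma. At an unadjusted p under 0.05, 1 Schwann cell marker was lower and 0 higher, and 2 adipocyte markers were higher and 3 lower, where 23.5% of the named genes were higher and 19.5% lower. The Schwann cell cadherin Cdh19 had a difference of -3.25 ± 0.45 (adjusted p = 0.577). The endothelial, mural and heart muscle lists thus moved with the comparison, EpiSC lying below CF in the median of every array, and CF are prepared from digested ventricle. The part of these cells in the decreases, Col4a3, Lama2 and the other basement membrane genes included, was not tested.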

How the data were processed

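Expression was measured on Affymetrix arrays from 1 ng of amplified, biotin-labelled RNA per sample. The deposited values are on a log scale taken as log2, its base being inferred: the design text says that the authors used GeneSpring GX 12.5, quantile normalization, ExonRMA16 summaries and a baseline at the median of all samples. Level and background are lost by that step, so the series' filter on the 20th percentile could not be applied. Precision is limited by how many arrays each group has. The design text calls the 5 arrays per group biological replicates.

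The value of identifier i was taken from row i + 6900, or 3 rows further for names starting TC10 or TC11, a pairing inferred from the values. The 10 arrays were fitted with limma 3.58.1 (lmFit, eBayes) in R 4.3.3, after a test on simulated data, with Bonferroni adjustment over 22206 rows as the design text names. The other 2 pairs were fitted likewise. Replicate numbers were not used as pairs, since the groups come from different hearts.

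Genes were named if they were the 5 markers of the comparison (Dmkn, Cdh3, Irf7, Ccna2, Col4a3), among the 20 largest differences each way past the threshold without overlap, or members of 28 gene lists (607 of 905 genes measured). The members and lists were chosen with earlier results of these data known. Promoter windows are from RefSeq. Alternatives were another normalization, a variance trend together with the robust setting of limma, all 3 groups in 1 fit and Benjamini-Hochberg adjustment. Further ones were other row sets, a replicate block and the omission of each array.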

Additional observations from a re-analysis of the deposited data

Results flagged for a closer look

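Within groups of 5 arrays, 1 array stood apart from the rest by Dixon's ratio in 23 of 266 tests of the genes named here, 2 groups per gene, where chance alone gives about 1 in 20. CF4 was the highest CF array for Cdk1 (-2.65), Cdc20 (-1.79), Ccnb2 (-1.61), Mki67 (-1.18) and Cxcl13 (-0.43). CF5 was the highest for Fam83d (-2.61) and Sfrp2 (-0.99). The lowest CF array was CF1 for Des (-1.27) and Kcnk2 (0.63), CF2 for Lcn2 (-2.09) and CF3 for Cemip (-3.47) and Flt4 (-0.53). Among EpiSC arrays, EpiSC4 was highest for Cemip (1.87) and Cnn1 (1.85) and lowest for Aqp1 (1.77). EpiSC1 was lowest for Tjp1 (-1.26) and highest for Tpi1 (0.68). EpiSC2 was highest for Gapdh (0.56) and lowest for Ptprb (-2.38). EpiSC3 was highest for Cxcl13 (5.26) and lowest for Col4a4 (-0.41). EpiSC5 was highest for Nos2 (3.30) and lowest for Mcm2 (0.29).

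In 3 genes the EpiSC and aCF arrays lay on opposite sides of the CF arrays without overlap. The direct test between EpiSC and aCF passed (limma, Bonferroni), but it does not place CF. For aCF against CF none of these genes passed. For EpiSC against CF only Col4a2 did, and it lost its call in 9 of the 10 omissions. Ptprb differed from CF by -1.95 in EpiSC and by 1.14 in aCF (adjusted p between them 1.91e-05). Rgs5 differed by -2.45 and 1.13 (0.000162), and Col4a2 by -0.88 and 0.42 (0.0006).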

How the results depend on the processing

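None of the genes named here that passed the threshold changed direction under an alternative that was run. The 647 rows past the threshold became 1060 with all 3 groups in 1 fit, 7157 with Benjamini-Hochberg adjustment and 369 to 557 when 1 array was left out. The 438 higher rows became 669, 3224 and 272 to 340, and the 209 lower rows 391, 3933 and 97 to 217. Of the 607 measured list genes 143 passed: 385 with Benjamini-Hochberg adjustment, 100 to 132 with 1 array left out and 19 of 848 when identifiers were used in the order deposited. Quantile normalization, the variance trend, the paired rows alone and the rows of low spread left out kept the total, higher and lower counts of rows, and the count of list genes where computed, within 1.5 times; with the trend single lists changed more, basement membrane from 9 lower to 4, interstitial collagens from 3 higher to 1 and Wnt genes from 2 to 0. Replicate numbers come from different hearts, and deviations of same-numbered EpiSC and CF arrays correlated at -0.0504 to 0.0132, with 0 of 5 EpiSC arrays closest to their own number. With the replicate number as a block 166 rows passed, 129 higher and 37 lower, and 61 list genes. Of the 101 genes named here that passed, 83 kept their call in every omission, 47 lost it with the replicate block, 10 with the variance trend, 4 with quantile normalization and 3 with all 3 groups. The cause of these changes was not tested.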
